A study of Mus musculus with 6 samples.

Results

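The genes described here are 10 genes of iron storage, iron transport and haem breakdown, found by their symbols among the 25755 genes of the deposited table, in which all 10 had a row. They were Fth1 and Ftl1 (the ferritin chains), Ncoa4 (the receptor that sends ferritin to the lysosome), Trf, Tfrc and Slc11a2 (uptake), Slc40a1 and Heph (export), Hmox1 (haem breakdown) and Ireb2 (sensing). Bulk RNA sequencing was done on whole optic nerves of the genotype NF1flox/flox;hGFAP-Cre, in 6 libraries that the labels number as mice 1 to 6. The study's methods for RNA extraction and qPCR used more than 1 mouse per sample, and whether these libraries did is not given. Mice 1 to 3 had sham surgery and mice 4 to 6 had optic nerve crush (ON-CR), which the study performed on both nerves at 6 weeks of age, and the nerves were taken at 3 months from transcardially perfused animals. Both groups carried the same alleles, in which the human GFAP promoter drives Cre and deletes floxed Nf1 in neuroglial progenitors and the cells derived from them, so that the sham mice were not normal controls and other cells of the nerve kept Nf1. According to the paper, ON-CR nerves of this genotype held optic gliomas at the age of analysis, with greater volume, proliferation and cellularity than sham nerves. The part of tumour in the values below was not tested. The question was how these genes differed between injured and sham-operated nerves of mice with conditional Nf1 loss.

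Iron enters cells bound to transferrin through the transferrin receptor, crosses the endosomal membrane through the divalent metal transporter Slc11a2, is stored inside ferritin shells of heavy and light chains, and leaves through ferroportin (Slc40a1) with the help of a ferroxidase such as hephaestin. Haem oxygenase opens the haem ring and frees its iron. In the central nervous system the most iron-rich cells are oligodendrocytes, which also make transferrin, while microglia and macrophages take up iron and haem from debris and blood. The iron regulatory proteins, among them IRP2, the product of Ireb2, bind a hairpin called the iron-responsive element when iron is scarce. Binding in a 5′ UTR blocks translation, and binding in the 3′ UTR of the transferrin receptor protects its mRNA, so ferritin and ferroportin are controlled largely after transcription.

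The hairpins are shown because they are what 4 of the 10 genes share in sequence. An RNA count also does not measure the block of translation through those in a 5′ UTR. UTRs were searched on the transcript strand for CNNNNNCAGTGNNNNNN, with the requirement that the 5 bases before CAGTGN pair with the last 5 (A with T, G with C or T), and the reference sequence (GRCm38, GENCODE) is given 5′ to 3′ with 6 flanking bases on each side and with the 6 bases of the loop in capitals.
Fth1 5′ UTR, chr19:9982732-9982760, plus strand: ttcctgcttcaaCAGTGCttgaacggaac
Ftl1 5′ UTR, chr7:45459779-45459807, minus strand: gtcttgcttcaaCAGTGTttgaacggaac
Slc40a1 5′ UTR, chr1:45925465-45925493, minus strand: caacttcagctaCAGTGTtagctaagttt
Tfrc 3′ UTR, chr16:32631219-32631247, plus strand: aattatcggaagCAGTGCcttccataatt
Tfrc 3′ UTR, chr16:32631598-32631626, plus strand: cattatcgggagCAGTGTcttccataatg
Tfrc 3′ UTR, chr16:32631663-32631691, plus strand: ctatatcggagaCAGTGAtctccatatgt
Tfrc 3′ UTR, chr16:32631710-32631738, plus strand: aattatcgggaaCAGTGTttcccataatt
A match was found in a UTR of 160 of 21877 protein-coding genes (0.731%), in the 5′ UTR of 31 (0.142%) and in the 3′ UTR of 129 (0.590%). The ferritin chains and ferroportin held 1 match each, all in the 5′ UTR, and Tfrc held 4 in the 3′ UTR. The other 6 genes had no match, which says only that these letters, so paired, are not in their annotated UTRs.

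Each library held 17414100 to 23621000 estimated reads, fewer in each ON-CR mouse than in any sham mouse. Values are normalized read counts, that is, estimated reads divided by 1 factor per library, in which 1 read was worth 0.885 to 1.06. The 15 oligodendrocyte markers and 7 astrocyte markers listed as a check of tissue identity were all detected. Xist, the RNA that silences 1 X chromosome in females, stood at 2.14 to 30.9 in the sham mice and 2708 to 6357 in the ON-CR mice, and the Y-linked Ddx3y at 1291 to 1645 in the sham mice, 976 in mouse 4 and 0 to 4.19 in mice 5 and 6. Sex and surgery therefore cannot be told apart in any value below, and mouse 4 carried RNA of both kinds. Nf1 itself stood at 343 to 447 in the sham mice and 380 to 438 in the ON-CR mice, a gene-level value that does not show the deletion. Across the table, limma called 540 genes at an adjusted p at or under 0.05, which is 2.10% of all genes tested.

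Among the 10 iron and haem genes, 1 passed this test, Hmox1, which was higher after ON-CR. In 3 of the 10 there was no overlap between the groups, namely Hmox1 and Ftl1, which were higher in every ON-CR mouse, and Fth1, which was lower in every ON-CR mouse. Over all genes, groups that did not overlap made up 21.6%, with 10.5% higher and 11.0% lower in ON-CR. By the sign of the log2 fold change, 3 of the 10 genes were higher and 7 lower, with a median of −0.31 against 0.03 for all genes. Of all genes, 52.8% were higher by sign. Among genes with a mean of at least 50, 48.1% were higher and the median was −0.01. The plot of all 10 genes by mouse shows how little the groups were separated for most of them.

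**Figure D1:**
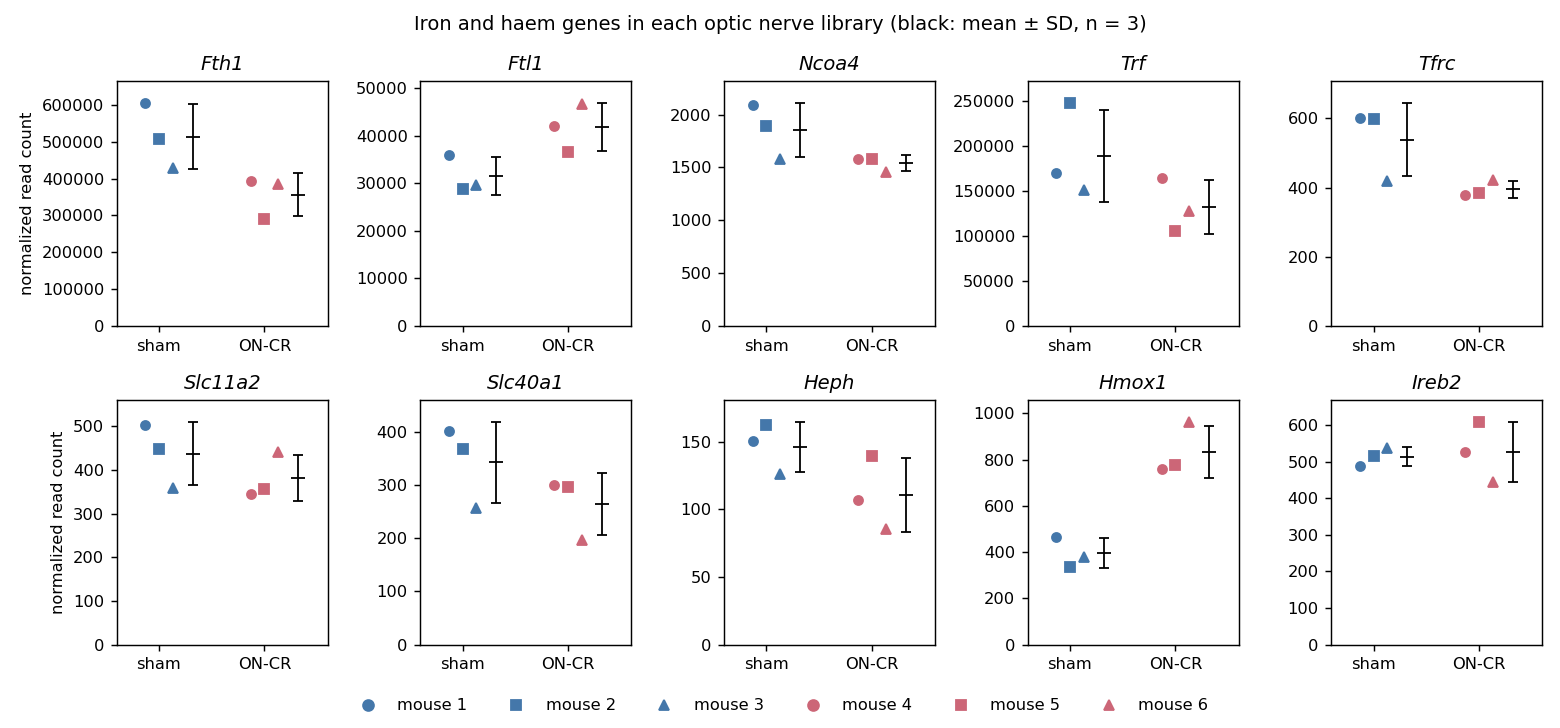
Normalized read count (y axis, from 0) of each of the 10 genes in each mouse, with 3 sham mice in blue and 3 ON-CR mice in red; black marks give the mean ± SD of each group (n = 3). The groups are apart for Fth1 (lower in ON-CR), Ftl1 (higher) and Hmox1 (higher) and overlap for the other 7 genes.

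Fth1 encodes the ferritin heavy chain, which oxidizes ferrous iron on its way into the shell (ENSMUSG00000024661, chromosome 19, 9980598 to 9985098, plus strand). It was the third most abundant gene of the table by mean value and took 1.59% to 2.86% of each library's total. Fth1 measured 604073, 507494 and 429573 in sham mice 1 to 3 and 393390, 290532 and 385823 in ON-CR mice 4 to 6. The highest ON-CR mouse thus lay below the lowest sham mouse, but the gap between them was smaller than the spread inside either group. The group means were 513713 ± 87416 and 356582 ± 57326 (SD, n = 3 each), which gave a log2 fold change of −0.53 (SE 0.21), with an adjusted p of 0.264 in limma. Its 95% interval ran from −0.996 to −0.06, so the size of the difference was poorly fixed by 3 mice a group.

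Ftl1 encodes the ferritin light chain, which has no ferroxidase site and helps the iron core to form (ENSMUSG00000050708, chromosome 7, 45457944 to 45459884, minus strand). Ftl1 measured 36008, 28698 and 29658 in the sham mice and 41948, 36660 and 46718 in the ON-CR mice, opposite in direction to the heavy chain. All ON-CR mice were higher, although mouse 5 exceeded sham mouse 1 only slightly. The log2 fold change was 0.41 (SE 0.14), from a mean of 31455 ± 3973 to 41775 ± 5031, with an adjusted p of 0.193 in limma. When each library was scaled to the same total, the adjusted p was 0.0480 and the log2 fold change 0.54.

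The table also held 5 processed copies of the ferritin genes, which share sequence with them, so that reads may have been split between gene and copy. Ftl1-ps1 was the largest, at 12.4% to 16.5% of Ftl1, and stood at 4456, 4019 and 4902 in the sham mice and 6360, 5347 and 7656 in the ON-CR mice. It was higher in every ON-CR mouse, like the parent gene, with a log2 fold change of 0.52 (SE 0.14) and an adjusted p of 0.103 in limma. Ftl2-ps (0.73) was likewise higher without overlap, with an adjusted p of 0.128 in limma, and Ftl1-ps2 (0.56), Fth-ps2 (−0.20) and Fth-ps3 (−0.52) overlapped between groups. None of the 5 passed the test. A locus on the other strand, Gm10252, overlaps exons of Ftl1, and had a mean of 26.4 in sham and 38.1 in ON-CR. Slc11a2 and Heph have such antisense neighbours too, Gm5475 and Hsf3, with means of at most 4.19, and whether the counting used strand is not given in the sources used here.

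A ratio within a library does not depend on how libraries are scaled, so the ferritin chains were set against each other, as a description with no test. There were 16.8, 17.7 and 14.5 reads of Fth1 per read of Ftl1 in sham mice 1 to 3 and 9.38, 7.93 and 8.26 in ON-CR mice 4 to 6. The ratio lay outside the sham range in every ON-CR mouse and varied little within a group, with means of 16.3 ± 1.65 and 8.52 ± 0.761 (SD, n = 3 each) and a fold of 0.522. Leaving out each mouse in turn gave folds of 0.495 to 0.545. With the pseudogene rows added to both chains the means were 14.2 ± 1.63 and 7.35 ± 0.662, a fold of 0.516. Per length, the ratio was 6.30 in sham and 3.29 in ON-CR when divided by all annotated exon bases, and 17.0 and 8.88 when divided by the length of the first listed transcript, so its level depends on the length assumed and its fold between groups does not. The light chain thus made up a larger part of ferritin mRNA in each ON-CR nerve, on a scale that neither library depth nor the normalization touches.

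**Figure D2:**
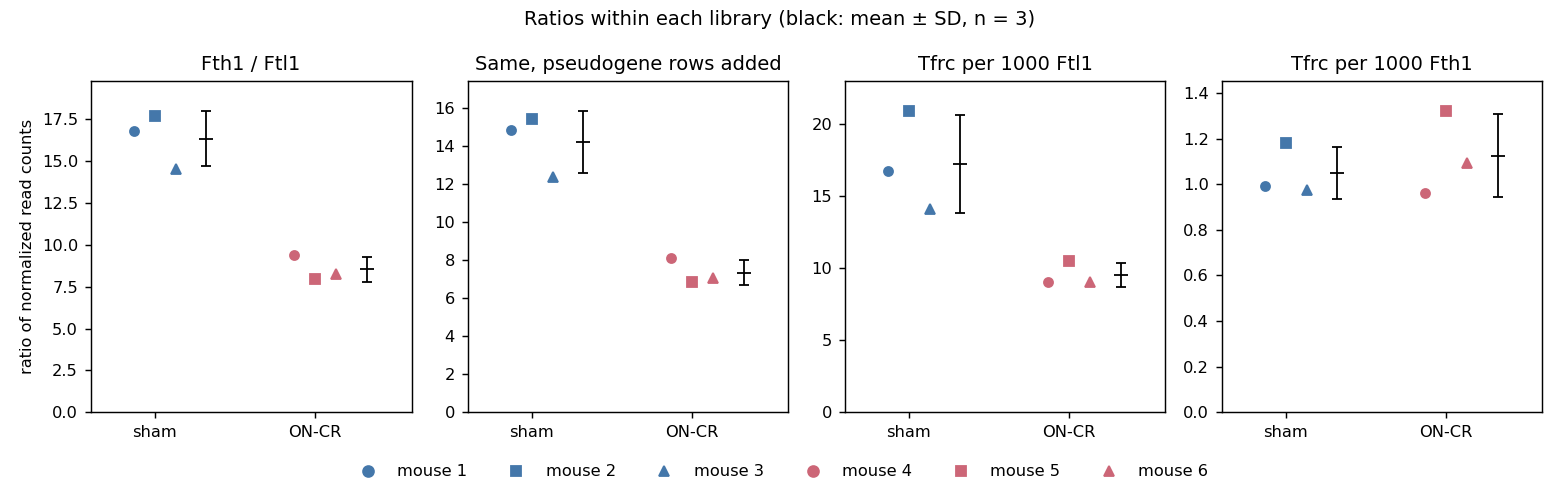
Ratios of normalized read counts within each library (y axes, from 0) for Fth1 over Ftl1, the same with ferritin pseudogene rows added, Tfrc per 1000 reads of Ftl1 and Tfrc per 1000 reads of Fth1, with each mouse as a point and the mean ± SD of 3 mice in black. The first 3 ratios are lower in every ON-CR mouse than in any sham mouse, and the fourth overlaps.

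Ncoa4 encodes the cargo receptor that delivers ferritin to the autophagosome, which releases its iron (ENSMUSG00000056234, chromosome 14, 32159865 to 32179855, plus strand). It stood at 2086, 1888 and 1578 in the sham mice and 1584, 1584 and 1460 in the ON-CR mice. Sham mouse 3 lay among the ON-CR mice, while the other sham mice were above all of them. The log2 fold change was −0.25 (SE 0.13), with an adjusted p of 0.368 in limma, and the ON-CR mice were much closer together (SD 71.7) than the sham mice (SD 256).

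Trf encodes transferrin, the carrier that holds ferric iron outside cells (ENSMUSG00000032554, chromosome 9, 103204001 to 103230444, minus strand). It was the 13th most abundant gene of the table by mean value. Trf measured 169817, 247614 and 150756 in the sham mice and 164257, 105160 and 127984 in the ON-CR mice. Mouse 4 lay inside the sham range and mice 5 and 6 below it. Its log2 fold change was −0.51 (SE 0.23), with an adjusted p of 0.320 in limma. It was −0.30 without sham mouse 2, the highest of the 6, and −0.67 without ON-CR mouse 4. The gene Gm20425 shares Trf exons on the same strand in the annotation used here and is not a row of the table, so Trf reads may include it.

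Transferrin and both ferritin chains supplied 99.1% to 99.5% of the summed value of the 10 genes in each library. That sum took 3.17% to 3.86% of the library in the sham mice and 2.39% to 3.19% in the ON-CR mice, with mouse 4 just above the lowest sham mouse. Reads of Trf per read of Fth1 overlapped between groups, at 0.373 ± 0.105 in sham and 0.370 ± 0.0435 in ON-CR (SD, n = 3 each).

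Tfrc encodes the receptor that takes up iron-loaded transferrin, and its mRNA is stabilized through hairpins of the kind shown above when iron is scarce (ENSMUSG00000022797, chromosome 16, 32608920 to 32632794, plus strand). Its values were 601, 599 and 418 in the sham mice and 379, 384 and 422 in the ON-CR mice. Sham mouse 3 fell inside the narrow ON-CR range and the other sham mice were well above it. The means were 539 ± 105 and 395 ± 23.4 (SD, n = 3 each), with a log2 fold change of −0.43 (SE 0.17) and an adjusted p of 0.244 in limma.

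Per 1000 reads of Ftl1 there were 16.7, 20.9 and 14.1 reads of Tfrc in the sham mice and 9.03, 10.5 and 9.02 in the ON-CR mice, which did not overlap. The fold was 0.552, and it was 0.618 without sham mouse 2, the mouse with the highest ratio. Per 1000 reads of Fth1 the receptor overlapped between groups, at 0.994, 1.18 and 0.973 in sham and 0.963, 1.32 and 1.09 in ON-CR. The receptor therefore differed between groups relative to the light chain and overlapped relative to the heavy chain.

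Slc11a2 encodes the proton-coupled transporter that moves ferrous iron out of the endosome (ENSMUSG00000023030, chromosome 15, 100387898 to 100425072, minus strand). Its values of 504, 449 and 359.7 in the sham mice and 344, 357 and 442 in the ON-CR mice overlapped, since mouse 6 was close to sham mouse 2. In limma its log2 fold change was −0.19 (SE 0.17), with an adjusted p of 0.639.

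Slc40a1 encodes ferroportin, the only known iron exporter of mammalian cells, and carries 1 hairpin in its 5′ UTR (ENSMUSG00000025993, chromosome 1, 45908068 to 45926523, minus strand). It measured 402, 368 and 256 in the sham mice and 300.1, 297 and 197 in the ON-CR mice. The groups overlapped through sham mouse 3, and the log2 fold change was −0.37 (SE 0.22), with an adjusted p of 0.469 in limma. Relative to 1000 reads of Fth1 its mean was 0.663 ± 0.0645 in sham and 0.765 ± 0.255 in ON-CR, also overlapping.

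Heph encodes hephaestin, the membrane ferroxidase that works with ferroportin, and lies on the X chromosome (ENSMUSG00000031209, 96455359 to 96574485, plus strand). It was the least abundant of the 10 genes, at 151, 162 and 126 in the sham mice and 107, 139 and 85.1 in the ON-CR mice. Mouse 5 lay inside the sham range and the other ON-CR mice below it, and the log2 fold change was −0.42 (SE 0.23), with an adjusted p of 0.418 in limma. Its secreted relative ceruloplasmin (Cp), which astrocytes anchor at their surface, had a log2 fold change of 0.50 (SE 0.16) and an adjusted p of 0.164 in limma, with overlapping values of 3674, 4077 and 4776 in sham and 6794, 4603 and 6486 in ON-CR.

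Hmox1 encodes the inducible haem oxygenase, which turns haem into biliverdin, carbon monoxide and ferrous iron (ENSMUSG00000005413, chromosome 8, 75093621 to 75100589, plus strand). It measured 465, 337 and 380 in sham mice 1 to 3 and 759.8, 775 and 964 in ON-CR mice 4 to 6. The lowest ON-CR mouse was well above the highest sham mouse, and the gap between them exceeded the range within either group. The mean rose from 394 ± 64.8 to 833 ± 114 (SD, n = 3 each). This was a log2 fold change of 1.08 (SE 0.16), with an adjusted p of 0.00855 in limma. On the linear scale this was 2.12-fold, with a 95% interval of 1.65 to 2.71. The call was lost without sham mouse 2 (adjusted p 0.0591 in limma) and without ON-CR mouse 6 (0.0854), with log2 fold changes of 0.98 and 0.97, and it was also lost in a fit without a trend of variance on mean (0.159).

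Hmox2, the constitutive haem oxygenase, measured 3138, 3126 and 2561 in the sham mice and 2584, 2184 and 2540 in the ON-CR mice, which overlapped, with a log2 fold change of −0.27 (SE 0.12) and an adjusted p of 0.331 in limma. Hmox1 per read of Hmox2 was 0.148, 0.108 and 0.149 in sham and 0.294, 0.355 and 0.379 in ON-CR, a fold of 2.54 between means and free of library scaling. Bach1, which encodes the haem-sensing repressor of Hmox1, was higher in every ON-CR mouse (136, 138 and 164 in sham and 262, 212 and 216 in ON-CR), with a log2 fold change of 0.65 (SE 0.18) that missed the threshold at an adjusted p of 0.102 in limma. Biliverdin reductase B (Blvrb), which acts on the product of haem oxygenase, had a log2 fold change of −0.22 and an adjusted p of 0.503 in limma.

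Ireb2 encodes IRP2, which binds the hairpins when iron is scarce and is degraded when it is plentiful (ENSMUSG00000032293, chromosome 9, 54863789 to 54912530, plus strand). It stood at 488, 516 and 538 in the sham mice and 527, 609 and 445 in the ON-CR mice, so the ON-CR range enclosed the sham range. The log2 fold change was 0.03 (SE 0.15) with a 95% interval from −0.30 to 0.35, which leaves room for a modest difference either way. The interval covers the mRNA alone, and protein was not measured here. The plot of fold changes sets these intervals side by side.

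**Figure D3:**
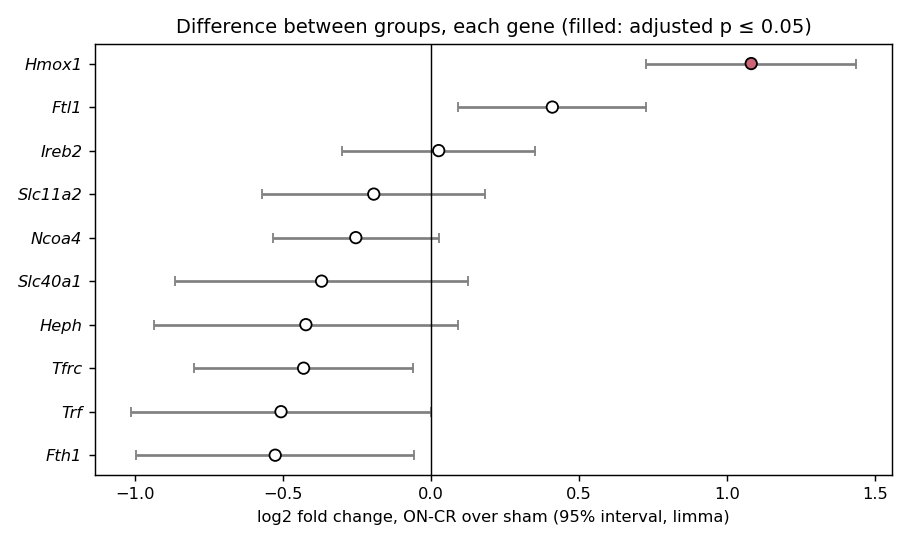
Log2 fold change of ON-CR over sham (x axis) with its 95% interval from limma for each of the 10 genes, ordered by size; the filled point marks an adjusted p at or under 0.05. Hmox1 is filled, at 1.08, and the intervals of Fth1, Trf, Tfrc and Ftl1 leave out 0 before adjustment over all genes.

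Per kb of the first listed transcript, the levels of the 10 genes covered a wide range in the sham mice. Fth1 led with 552975 ± 94097, followed by Trf at 73666 ± 19958 and Ftl1 at 32495 ± 4104 (SD, n = 3 each). Ncoa4 (554 ± 76.6) and Hmox1 (251 ± 41.3) came next, and none of these 5 overlapped its neighbour in the order. Slc11a2 (145 ± 24.1), Tfrc (110 ± 21.4), Slc40a1 (101.6 ± 22.6) and Ireb2 (89.1 ± 4.34) followed in the mean, and the range of each over mice overlapped the next. Within every sham library Slc11a2 was above Tfrc and Ireb2, and Tfrc was above Slc40a1. Slc40a1 was above Ireb2 in sham mice 1 and 2 and below it in sham mouse 3. Heph (30.8 ± 3.9) was below all of them. In the ON-CR mice Trf was above Ftl1 in every library, although their ranges over mice overlapped. Hmox1 (531) stood above Ncoa4 (461) in every ON-CR library. With the length of all exons in place of 1 transcript, Hmox1 had the higher mean in the sham mice too, so that order depends on the transcript assumed.

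Bulk RNA cannot tell fewer cells of a type from less RNA per cell, so marker lists were read beside these results. Of 15 oligodendrocyte markers, among them Mbp and Mog, 12 passed the test, all lower, against 1.13% of all genes called lower. All 15 had a log2 fold change below 0, with a median of −0.90. Their summed value was 1319770 to 1879460 in the sham mice and 643126 to 765377 in the ON-CR mice. Fth1 and Trf moved in the same direction by less, so that per unit of summed oligodendrocyte markers Fth1 was 0.321, 0.299 and 0.325 in sham and 0.514, 0.452 and 0.568 in ON-CR. Trf per unit of the same sum was 0.0904, 0.146 and 0.114 in sham and 0.215, 0.164 and 0.189 in ON-CR, and for both genes the mean was 1.62-fold higher in ON-CR without overlap. Mbp alone made up 53.9% to 69.0% of that sum, and without it the folds were 1.30 for Fth1 and 1.31 for Trf, again without overlap. The part of the oligodendrocyte markers in the lower Fth1 and Trf was not tested.

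Of 12 microglia markers, 3 passed the test, all higher (Aif1, Trem2 and C1qa), and the median was 0.37, with a summed value of 18389 to 24635 in sham and 23380 to 34928 in ON-CR. The sign was below 0 in 4 of the 12, among them P2ry12 (−0.35) and Tmem119 (−0.27), which mark resting microglia and did not pass, and Tmem119 was lower in every ON-CR mouse. Ftl1 per unit of that sum overlapped between groups, at 1.46, 1.36 and 1.61 in sham and 1.22, 1.57 and 1.34 in ON-CR. Hmox1 per 1000 units of the sum was 18.9, 16.0 and 20.7 in sham and 22.2, 33.1 and 27.6 in ON-CR, higher in each ON-CR mouse and 1.49-fold higher in the mean. Of 8 markers of border-associated macrophages none passed the test (median −0.06), and the same held for 5 neutrophil markers (median 0.61, summed value 66.4 to 317 in sham and 159 to 272 in ON-CR). Of 7 astrocyte markers (median 0.14), 4 were higher and 3 lower by sign, and 1 passed the test, S100b, which fell. Without overlap, 3 were higher and did not pass, among them Gfap (0.64, adjusted p 0.0859 in limma). Another 2 were lower without overlap, S100b and Aldoc (−0.62, adjusted p 0.0950 in limma). Over all genes, 10.5% were higher and 11.0% lower without overlap. The part of microglia in the higher Ftl1 and Hmox1 was not tested.

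Erythroid RNA was present in every nerve although the mice had been perfused. The 7 erythroid genes, globins and Alas2 among them, summed to 509386, 305816 and 269455 in sham mice 1 to 3 and 137012, 378091 and 245665 in ON-CR mice 4 to 6. None of the 7 passed the test, and their median log2 fold change was −0.65. Fth1 and Ftl1 are also expressed in erythroid cells, and the part of blood in their values and in that of Hmox1 was not tested.

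**Figure D4:**
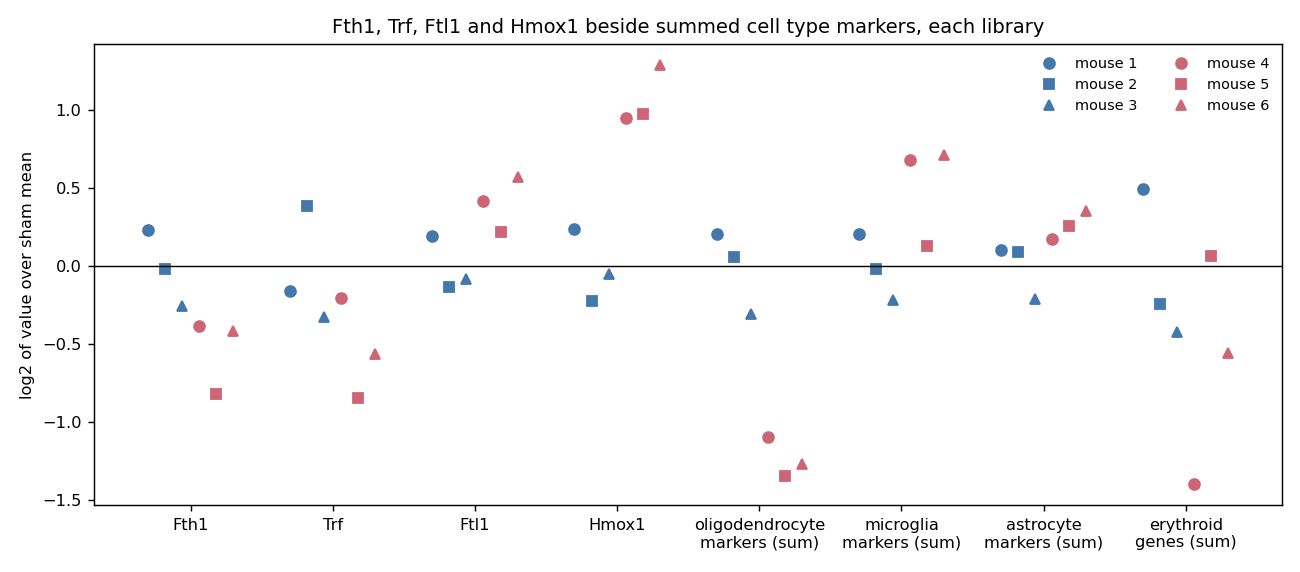
Log2 of each mouse's value over the sham mean (y axis) for Fth1, Trf, Ftl1 and Hmox1 and for the summed markers of oligodendrocytes, microglia, astrocytes and erythroid cells, with sham mice in blue and ON-CR mice in red. The oligodendrocyte sum is lower in each ON-CR mouse by more than Fth1 or Trf, and the erythroid sum overlaps between groups.

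A wider list of 72 iron and haem genes showed what surrounded the 10, and 69 of them had a row (Timd2, Hephl1 and Hamp did not). In limma 4 of the 69 were called higher and 4 lower, against 0.971% of all genes higher and 1.13% lower. The groups did not overlap in 8 genes that were higher (11.6% of the 69, against 10.5% of all genes) and 20 that were lower in ON-CR (29% against 11.0%), and the median log2 fold change was −0.16. The 4 called higher were Lcn2, Slc39a14, Hebp1 and Cybrd1, and the 4 called lower were Fdx1, Ndfip1, Mcoln1 and Slc48a1. In the 6 fits that each left out 1 mouse, Lcn2 and Ndfip1 were the only ones of the 8 called every time, and the only ones called without mouse 6. In a fit without a trend of variance on mean, Lcn2 alone was called.

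Lcn2 encodes lipocalin 2, a secreted protein that binds iron-carrying siderophores and is made by reactive astrocytes and neutrophils. Its values were 60.5, 38.1 and 50.7 in the sham mice and 611, 647 and 480 in the ON-CR mice, and every ON-CR mouse was far above every sham mouse. The log2 fold change was 3.53 (SE 0.22), with an adjusted p of 0.000136 in limma, and it was 3.35 to 3.68 with each mouse left out. This was larger than the change of any of the 10 genes.

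Slc39a14, the metal importer ZIP14, which takes up iron that is not bound to transferrin, measured 423, 397 and 393 in sham and 1066, 560 and 1052 in ON-CR, with a log2 fold change of 1.08 (SE 0.23; adjusted p 0.0400 in limma). The ferric reductase gene Cybrd1 stood at 423, 383 and 354 in sham and 655, 633 and 614 in ON-CR, with a log2 fold change of 0.71 (SE 0.13; adjusted p 0.0232 in limma). Of the 15 uptake genes with a row, 1 was called lower, Mcoln1, which encodes a lysosomal cation channel. It stood at 438, 661 and 412 in sham and 247, 225 and 206 in ON-CR (log2 fold change −1.12, SE 0.19, adjusted p 0.0190 in limma). The ferritin receptor gene Scara5, the lowest of the uptake group at −1.46 (SE 0.40), missed the threshold at an adjusted p of 0.0975 in limma. It was lower in every ON-CR mouse, whereas Steap3 (0.24; adjusted p 0.386 in limma), the endosomal ferric reductase, and Tfr2 (−0.82; 0.505), with a mean of 18.1 in sham and 9.17 in ON-CR, overlapped.

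Ndfip1, an adaptor that brings the metal transporter Slc11a2 to ubiquitin ligases, measured 4239, 4826 and 4300 in sham and 1778, 1843 and 1568 in ON-CR. The log2 fold change was −1.37 (SE 0.11; adjusted p 0.000541 in limma), and the groups were far apart. The 3 genes listed as sensors were each lower in every ON-CR mouse, which held for 11.0% of all genes, and none passed the test: Aco1, which encodes IRP1 (−0.29; adjusted p 0.279 in limma), Fbxl5, which marks IRP2 for degradation (−0.44; 0.0950), and Epas1, which encodes the hypoxia factor HIF-2alpha (−0.33; 0.209).

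Of 13 genes of mitochondrial iron and iron-sulphur clusters, 12 had a log2 fold change below 0 and 1, Fdx1, was called lower. Over all genes, 1.13% were called lower. Without overlap, 6 of the 13 were lower, against 11.0% of all genes, and none was higher. By sign, 52.8% of all genes were higher, and 48.1% of those with a mean of at least 50. Fdx1 encodes a ferredoxin that passes electrons in the mitochondrion, and it fell from 228, 346 and 319 to 104, 95.4 and 74.8, a log2 fold change of −1.69 (SE 0.22; adjusted p 0.00503 in limma). The median of the 13 was −0.31, the same as that of the 10 main genes to 2 decimals. None of the 11 genes of haem synthesis passed the test, and their median was −0.24. Alas1, the first enzyme of haem synthesis outside erythroid cells, had a log2 fold change of 0.19, and Fech, which inserts the iron, of −0.64 (adjusted p 0.0827 in limma). These 2 genes and Epas1 were named after their values were seen.

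Of the 14 genes of haem uptake, transport and breakdown other than Hmox1, 1 was called higher and 1 lower in limma, against 0.971% and 1.13% of all genes. By sign, 9 were higher and 5 lower, and 52.8% of all genes were higher. Hebp1, which encodes a haem-binding protein, stood at 365, 491 and 525 in sham and 854, 757 and 1185 in ON-CR, a log2 fold change of 1.01 (SE 0.19; adjusted p 0.0295 in limma). Slc48a1, the transporter that carries haem out of the lysosome, stood at 9005, 10009 and 7591 in sham and 6298, 4778 and 5575 in ON-CR, a log2 fold change of −0.68 (SE 0.14; adjusted p 0.0398 in limma). Flvcr1, a haem exporter, had higher values in each ON-CR mouse but missed the threshold (0.64, SE 0.25; adjusted p 0.247 in limma).

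**Figure D5:**
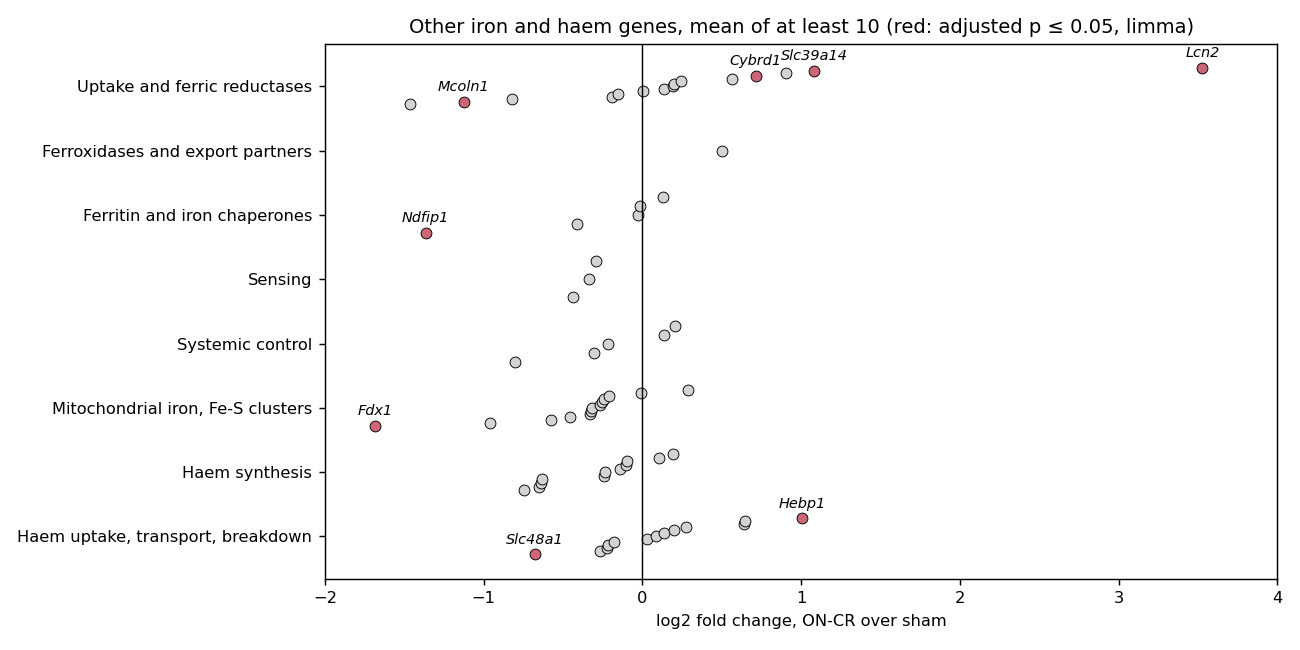
Log2 fold change of ON-CR over sham (x axis) for the genes of the wider iron and haem list with a mean of at least 10, grouped by role (y axis; height within a role only separates points); red points have an adjusted p at or under 0.05 in limma and carry their symbol. Lcn2 lies apart at 3.53, and 12 of the 13 mitochondrial genes lie below 0.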

How the data were processed

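Total RNA of optic nerves was sequenced from 3 sham and 3 ON-CR mice, grouped by the sample labels. Per the study's methods, the authors used DRAGEN for alignment and quantification and Ensembl annotation of mm10, normalized by the median in Partek Flow 10.0, and tested with DESeq2. The deposited unit is a normalized signal, in which each library's estimated read counts share one divisor. Dividing by the value of 1 read gave whole reads for 70.5% to 72.4% of values, too few for a count test, so the reads served only for depth. At 3 reads, the floor was a value of 2.66 to 3.18, which covers counting error only.

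The test was limma 3.58.1 (R 4.3.3) on log2(value + 1), two-sided, with a trend of variance on mean, and p-values were adjusted by Benjamini and Hochberg's method over all 25755 genes without a filter. A log2 fold change on this scale understates the change of low genes. The fit was checked on simulated data. The 10 genes, the wider list and the marker lists were chosen with earlier results of these data known. Named from the wider list were called genes (adjusted p up to 0.05), the 3 highest and 3 lowest log2 fold changes at a mean of at least 50, and genes of fixed roles. Ratios to Hmox2, of Trf to Fth1, with pseudogenes and to marker sums were chosen after values were seen, and no ratio was tested. Positions, lengths and UTRs are from GENCODE on GRCm38, the assembly of mm10, whose annotation release differs from that of the authors. Alternatives were other pseudocounts, scalings, filters and limma settings, and leaving out each mouse. Mice of the TBI experiment were not analysed here. Some single-gene values of the marker lists are not reported here.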

Additional observations from a re-analysis of the deposited data

How the results depend on the processing

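The 10 genes were refitted under 18 alternatives, 17 for the X-linked Heph. Of 179 values, 172 kept their direction and their side of the threshold, 3 lost a call, 1 gained one and 3 changed sign. Hmox1 was called in 15 of 18 alternatives, with log2 fold changes of 0.97 to 1.21, and lost its call without the mean-variance trend (adjusted p 0.159 in limma) and without sham mouse 2 or ON-CR mouse 6. The count of called genes among the 10 was 2 under total scaling, when Ftl1 was added, 0 without the trend, and 0 to 1 with each mouse left out. Ireb2, which was not called, changed sign under sample quality weights (−0.0028), without sham mouse 1 (−0.01) and without mouse 5 (−0.0837), and its leave-one-out range was −0.0837 to 0.14. The fold of Tfrc per Ftl1 was 0.507 to 0.618 with each mouse left out, a range added for the ratios after seeing the data, as were the marker sums without Mbp. Of all genes, 540 were called, 7 without the trend and 67 to 854 with each mouse left out, the lowest without mouse 6 and the highest without mouse 5. The cause of these shifts was not tested. Total scaling moved the median of all genes from 0.03 to 0.15 and the split of higher and lower calls from 250 and 290 to 421 and 195. After removing the 10 most abundant genes, an alternative chosen after seeing the data, the split was 298 and 227. No paired analysis was possible because the groups share no mouse numbers. With 3 mice a group, differences the size of those in Fth1 and Ftl1 did not pass adjustment over the whole table.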
